A study of Arabidopsis thaliana with 12 samples.

Results

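Transcript levels in developing Arabidopsis thaliana seeds of dellaq, a mutant named for DELLA proteins, were compared with those of wild-type Col-0-1 seeds. The comparison took all 3 dellaq and all 3 Col-0-1 libraries, 6 of the 12 libraries of the series. The other libraries were a second wild-type set, Col-0-2, and the mutant lec1-4, with 3 libraries each. Seeds were removed from siliques 9 days after pollination, on plants grown at 22 °C in 16 h of light and 8 h of dark, and poly-A RNA was sequenced. Both Col-0 sets carry the genotype label wild type. The labels define dellaq by its name alone, without the DELLA genes it affects, and do not state that replicates came from separate plants. The p-values thus reflect variation among these libraries, which may be technical. Levels are FPKM (fragments scaled to transcript length and to library size), as deposited. Of 33602 gene IDs, 19267 reached 1 FPKM in 3 or more of the 6 libraries and were tested, of which 19143 were nuclear, 94 plastid-encoded and 30 mitochondrial.

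DELLA proteins are nuclear repressors of gibberellin responses. Gibberellin binds the GID1 receptors, which then deliver DELLA proteins to the F-box protein SLEEPY1 for degradation, and genes held back by DELLA proteins, or activated through them, change their transcription. In seeds, gibberellin promotes germination and embryo growth, and abscisic acid promotes maturation, storage and dormancy. Seed maturation genes commonly carry the RY element (CATGCA), which B3 domain factors such as FUS3 and ABI3 bind, and the G-box (CACGTG), a site of basic leucine zipper factors.

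The 250 bases before the annotated gene start are printed for 4 nuclear genes that rose in dellaq, to show matches to these elements in genes of storage proteins, oil bodies and LEA (late embryogenesis abundant) proteins. They are SESA3 on chromosome 4 (plus strand), the most abundant storage albumin transcript, OLEO1 on chromosome 4 (plus strand), the leading oleosin, AT5G44310 on chromosome 5 (minus strand), a LEA gene, and AT1G04560 on chromosome 1 (plus strand), the gene with the largest rise. The sequences are from the RefSeq assembly TAIR10.1, located by gene ID and written 5′ to 3′ on the gene's strand. The authors' build is not given in the sources used here. Capitals mark matches to CATGCA and CACGTG on either strand.
SESA3: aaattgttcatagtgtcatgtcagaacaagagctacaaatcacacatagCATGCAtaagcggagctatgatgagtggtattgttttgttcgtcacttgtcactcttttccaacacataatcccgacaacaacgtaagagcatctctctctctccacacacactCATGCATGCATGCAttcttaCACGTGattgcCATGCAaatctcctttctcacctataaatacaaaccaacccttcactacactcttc
OLEO1: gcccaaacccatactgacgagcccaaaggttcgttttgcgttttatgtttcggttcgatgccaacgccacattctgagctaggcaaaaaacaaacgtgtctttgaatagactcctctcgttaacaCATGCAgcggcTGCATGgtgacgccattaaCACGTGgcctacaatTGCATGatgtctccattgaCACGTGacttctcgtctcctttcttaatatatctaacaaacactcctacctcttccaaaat
AT5G44310: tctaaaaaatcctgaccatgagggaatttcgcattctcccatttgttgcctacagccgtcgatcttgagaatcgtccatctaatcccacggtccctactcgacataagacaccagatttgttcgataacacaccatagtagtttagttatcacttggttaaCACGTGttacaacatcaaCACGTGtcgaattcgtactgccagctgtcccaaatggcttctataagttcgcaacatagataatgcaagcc
AT1G04560: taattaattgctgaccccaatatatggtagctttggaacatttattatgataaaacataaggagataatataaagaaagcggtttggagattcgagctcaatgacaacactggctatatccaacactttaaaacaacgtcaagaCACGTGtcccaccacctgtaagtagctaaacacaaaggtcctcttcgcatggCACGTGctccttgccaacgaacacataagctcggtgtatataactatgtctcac
The SESA3 window held 7 matches to CATGCA, counting overlapping matches and both strands, and 1 to CACGTG. The OLEO1 window held 3 and 2. The windows of AT5G44310 and AT1G04560 held 2 matches each to CACGTG and 0 to CATGCA. Over whole lists, CATGCA occurred in 11 of 13 storage protein promoters (84.6%) and 11 of 15 oil body promoters (73.3%) but 5 of 23 LEA promoters (21.7%), against 7.75% of 19115 nuclear promoters. CACGTG occurred in 17 of 23 LEA promoters (73.9%) and 8 of 13 storage promoters (61.5%) but 2 of 15 oil body promoters (13.3%), of which OLEO1 is 1, against 7.53%. Both occurred together in 7 of 13 storage promoters, against 0.701% of all. In the 10 largest rises and in the 10 largest falls alike, 3 promoters held CATGCA and 2 held CACGTG. Among the falls, CATGCA lay before CA1 and before the annotated rRNA loci AT3G41979 and AT2G01020. The windows of these 2 loci are nearly identical, with the match at the same place, so they are not independent. Among nuclear genes that rose by a log2 change of at least 1, CATGCA was present in 16.9% and CACGTG in 12.8%, and among those that fell by as much in 10.4% and 6.08%. Of the shorter motifs, ACGTG, which lies inside CACGTG, occurred in 33.6% of those that rose and 24.5% of those that fell, against 23.3% of all. CCAAT occurred in 44.6% and 41.9%, against 47.5%, and GATA in 87.7% and 90.1%, against 86.9%. These shares describe letters in a window, and a match is not a bound site.

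Library features differed between the compared groups. Estimated depth was 13.96 to 16.5 M fragments in dellaq and 14.8 to 14.9 M in Col-0-1. Plastid-encoded genes made up 0.909 to 1.09% of the FPKM sum in dellaq and 0.0250 to 0.0366% in Col-0-1, whereas nuclear rRNA loci summed to 107 to 181 FPKM and 959 to 1408 FPKM. Median log2 changes of nuclear genes also fell with exon length, from 0.10 in the shortest of 5 bins (72 to 1124 bases) to -0.35 in the longest (2580 to 16614 bases). Against Col-0-2 the same medians were -0.12 and -0.094. Between the wild-type sets, Col-0-2 minus Col-0-1, they were 0.20 and -0.26. With a trend in length and GC content removed, 3688 nuclear genes were called higher and 9221 lower in dellaq. Col-0-2 libraries lay nearer dellaq, with plastid-encoded shares of 0.589 to 0.656% and rRNA sums of 43.3 to 82.3 FPKM. The lec1-4 libraries lay nearer Col-0-1, at 0.0186 to 0.0271% and 1115 to 1406 FPKM. Tested nuclear genes summed to 772744 to 776110 FPKM in dellaq, 683049 to 689975 in Col-0-1 and 748161 to 759740 in Col-0-2. The compared groups thus differed in features that also separated the wild-type sets. The part of depth and of plastid and rRNA levels in the results was not tested.

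**Figure D1:**
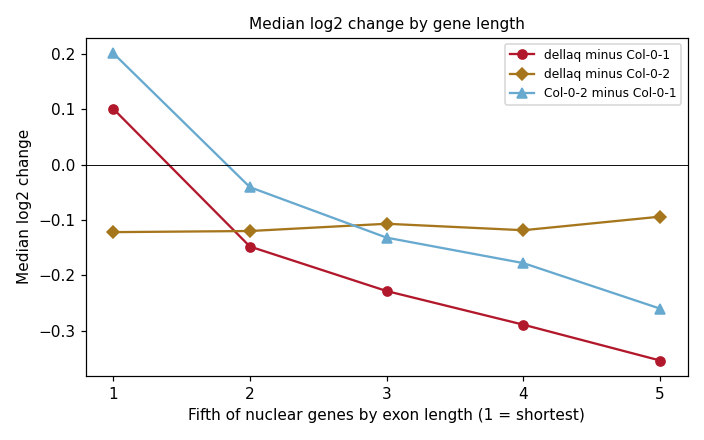
Median log2 change (log2(FPKM + 1) scale) of nuclear genes in 5 bins of exon length, from 1 (shortest) to 5 (longest), with 3815 to 3828 genes per bin; lines join the medians of 3 comparisons. The line for dellaq minus Col-0-1 falls from 0.10 to -0.35 and that for Col-0-2 minus Col-0-1 from 0.20 to -0.26, while that for dellaq minus Col-0-2 runs from -0.12 to -0.094.

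Among the 19143 nuclear genes, 3756 (19.6%) were higher and 10071 (52.6%) lower in dellaq than in Col-0-1, 72.2% in all, at an adjusted p under 0.05 (limma on log2(FPKM + 1), two-sided, adjusted over all 19267 genes). With a log2 change of at least 1 as well, 848 (4.43%) were higher and 1334 (6.97%) lower. The 3 dellaq libraries lay entirely above the 3 Col-0-1 libraries for 20.5% of nuclear genes and entirely below for 54% of them. The median nuclear gene changed by -0.23 on the log2 scale, so a count of lower genes in a list is to be read against that shift and against 52.6%. Median-ratio scaling moved the median to 0.0022 and the counts to 6331 higher and 5875 lower. Equal nuclear FPKM sums moved it to -0.39, with 2565 higher and 12541 lower, and upper-quartile scaling to -0.11, with 4885 higher and 7890 lower. Against Col-0-2, 22.5% of nuclear genes were higher and 41.1% lower in dellaq, 63.6% in all. In the same direction against both wild-type sets, 1881 genes were higher and 5561 lower. The comparisons share the dellaq libraries. The wild-type sets themselves differed for 66.3% of nuclear genes.

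The 10 largest rises included 3 globulin genes, a dehydrin gene, a lipid transfer family gene and a peroxidase gene. Values are given in the order of replicates 1, 2 and 3, and for every nuclear gene whose 6 values are given and that passed the test the dellaq and Col-0-1 libraries did not overlap. AT1G04560, which encodes an AWPM-19-like membrane protein, measured 108, 274 and 192 FPKM in dellaq and 0.630, 0.0784 and 1.18 FPKM in Col-0-1 (log2 change 6.84 ± 0.43 SE, adjusted p = 5.6e-08). AT2G05580, a glycine-rich protein gene, measured 43.6, 104 and 90.5 FPKM in dellaq and 0.250, 0.0624 and 0.502 FPKM in Col-0-1 (log2 change 5.90 ± 0.25 SE, adjusted p = 2.5e-09). The dehydrin gene LEA (AT2G21490) measured 90.0, 207 and 164 FPKM in dellaq and 1.21, 0.882 and 4.11 FPKM in Col-0-1 (log2 change 5.72 ± 0.38 SE, adjusted p = 7.9e-08). In all of these the dellaq library with the highest value was replicate 2. AT2G38905, a low temperature and salt responsive family gene, measured 74.4, 120.4 and 125 FPKM in dellaq and 1.92, 1.28 and 2.57 FPKM in Col-0-1 (log2 change 5.19 ± 0.19 SE, adjusted p = 7.3e-10). The lipid transfer family gene AT1G03103 measured 388, 541 and 440.4 FPKM in dellaq and 19.3, 2.83 and 39.3 FPKM in Col-0-1 (log2 change 4.95 ± 0.79 SE, adjusted p = 1.2e-04). Its change was 3.99 without Col-0-1 replicate 2 and 5.68 without Col-0-1 replicate 3. The peroxidase gene AT2G38380 measured 50.4, 98.7 and 65.8 FPKM in dellaq and 2.10, 0.146 and 2.64 FPKM in Col-0-1 (log2 change 4.90 ± 0.38 SE, adjusted p = 3.0e-07), and AT4G31830, an uncharacterized gene, rose by 5.45. The remaining members were the globulin genes CRU3 (5.91), AT1G03890 (5.86) and CRU2 (4.92). All 10 also passed against Col-0-2 in the same direction, and the wild-type sets differed in 4 of them.

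Genes that were listed at 0 in every Col-0-1 library and at 5 FPKM or more in every dellaq library numbered 5, of which 4 were nuclear. AT1G14950, a polyketide cyclase family gene, measured 11.4, 29.4 and 22.6 FPKM in dellaq. The uncharacterized genes AT2G19320 and AT5G20045 measured 12.7, 29.5 and 20.3 FPKM and 8.51, 17.1 and 13.3 FPKM. A further uncharacterized gene, AT1G68250, measured 9.26, 13.2 and 69.7 FPKM, and its log2 change of 4.45 became 3.60 without dellaq replicate 3, the highest library. The plastid-encoded one was ATCG01120. In the reverse direction the count was 0.

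**Figure D2:**
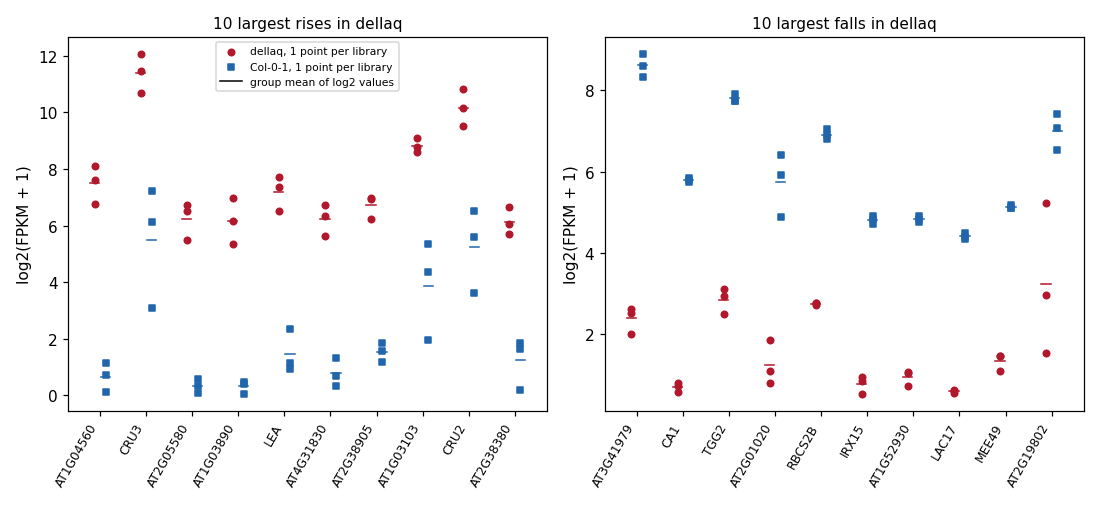
Levels as log2(FPKM + 1) in each library for the 10 nuclear genes with the largest rises (left) and falls (right); circles are dellaq libraries, squares Col-0-1 libraries and short lines group means. The groups do not overlap for any of the 20 genes, and CRU3, CRU2 and AT1G03103 are the rises with the widest spread among Col-0-1 libraries.

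Storage protein, oil body and LEA genes rose together. All 13 storage genes, 13 of 15 oil genes and all 19 tested LEA genes of 23 passed upward, with medians of 3.60, 2.23 and 3.08. The 3 lists made up 4.77 to 8.18% of the nuclear FPKM sum in dellaq libraries and 0.754 to 1.49% in Col-0-1 libraries. Their share was 0.328 to 0.365% in Col-0-2 libraries. Against Col-0-2, 13 storage, 14 oil and 18 LEA genes were higher and 1 oil gene lower, with medians of 6.61, 3.79 and 3.90. The size of the rise thus differed with the wild-type set. The 2S albumin gene SESA3 measured 7130.2, 13339.6 and 10190.1 FPKM in dellaq and 872, 399.9 and 1556 FPKM in Col-0-1 (log2 change 3.60 ± 0.64 SE, adjusted p = 2.7e-04). SESA2 measured 5161, 10516 and 7664 FPKM in dellaq and 502, 192 and 1003 FPKM in Col-0-1 (log2 change 4.02 ± 0.68 SE, adjusted p = 1.8e-04). Col-0-1 replicate 2 was the lowest library for both genes. Without it the change of SESA2 was 3.39. Neighbouring SESA genes are similar in sequence and may share reads. Among globulins, CRU3 measured 1623, 4299 and 2799.9 FPKM in dellaq and 68.5, 7.51 and 149.8 FPKM in Col-0-1 (log2 change 5.91 ± 0.97 SE, adjusted p = 1.5e-04), and its change was 4.72 without Col-0-1 replicate 2 and 6.79 without Col-0-1 replicate 3. CRU2 measured 733, 1825 and 1137 FPKM in dellaq and 47.1, 11.3 and 91.4 FPKM in Col-0-1 (log2 change 4.92 ± 0.63 SE, adjusted p = 1.9e-05), and its change was 4.11 without Col-0-1 replicate 2 and 5.57 without Col-0-1 replicate 3. AT4G36700, a cupin of the vicilin type, differed least in the list, at 843, 991 and 922 FPKM in dellaq and 358, 321 and 382 FPKM in Col-0-1 (log2 change 1.37 ± 0.081 SE, adjusted p = 3.1e-08).

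In OLEO1, ATS1 and AT1G05510, the oil body genes given library by library, dellaq replicate 2 was again the highest library and Col-0-1 replicate 2 the lowest. OLEO1 measured 3853, 5339 and 4826 FPKM in dellaq and 723, 527 and 1044 FPKM in Col-0-1 (log2 change 2.65 ± 0.34 SE, adjusted p = 2.2e-05). The peroxygenase gene ATS1, whose protein sits on oil bodies, measured 284, 478 and 409 FPKM in dellaq and 27.7, 14.5 and 44.4 FPKM in Col-0-1 (log2 change 3.81 ± 0.31 SE, adjusted p = 4.4e-07). AT1G05510 measured 13.2, 37.1 and 32.0 FPKM in dellaq and 0.206, 0.0684 and 0.275 FPKM in Col-0-1 (log2 change 4.47 ± 0.28 SE, adjusted p = 5.7e-08). OLEO2 and OLEO3 rose by 2.66 and 1.20. The other members rose by 0.32 (TAG1, triacylglycerol synthesis) to 3.98 (ATPXG2), apart from PDAT (log2 change -0.028, adjusted p = 0.755) and FAD2 (log2 change 0.10, adjusted p = 0.17), which missed the threshold. Those 4 genes were named after their values were seen. In the LEA list, AT5G44310 measured 79.6, 135 and 114 FPKM in dellaq and 10.5, 5.11 and 19.2 FPKM in Col-0-1 (log2 change 3.26 ± 0.34 SE, adjusted p = 3.5e-06). AT3G17520 measured 17.8, 46.7 and 45.0 FPKM in dellaq and 0.808, 0.186 and 0.561 FPKM in Col-0-1 (log2 change 4.53 ± 0.43 SE, adjusted p = 1.6e-06). AT2G42560 measured 6.33, 14.9 and 22.4 FPKM in dellaq and 0.155, 0.123 and 0.124 FPKM in Col-0-1 (log2 change 3.62 ± 0.31 SE, adjusted p = 7.2e-07). LEA7 rose by 3.10. Dellaq replicate 1 was the lowest dellaq library for each of these LEA genes. Of the late heat shock genes, 3 of 6 tested rose and 0 fell (median 0.86), and against Col-0-2 1 passed upward (median 0.19). HSP101, a chaperone that frees aggregated proteins, measured 11.8, 14.6 and 15.8 FPKM in dellaq and 7.72, 5.89 and 8.65 FPKM in Col-0-1 (log2 change 0.85 ± 0.14 SE, adjusted p = 2.1e-04). AT1G07400 rose by 1.07, with no call against Col-0-2 (0.25, adjusted p = 0.425), and HSP17.4 measured 2.18, 1.63 and 11.4 FPKM in dellaq and 0, 0.185 and 0.186 FPKM in Col-0-1 (log2 change 2.07, adjusted p = 0.0113), which became 1.37 (adjusted p = 0.0550) without dellaq replicate 3, its highest library, and 0.10 (adjusted p = 0.904) against Col-0-2. HSP17.6A, also highest in dellaq replicate 3, did not pass (log2 change 0.88, adjusted p = 0.162).

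The most abundant nuclear transcripts in dellaq came from a pair of neighbouring genes of a lipid transfer protein family. AT5G38160, annotated as a bifunctional inhibitor and lipid transfer protein, measured 19131, 16737 and 17580.5 FPKM in dellaq and 4528, 4658 and 5407 FPKM in Col-0-1 (log2 change 1.87 ± 0.10 SE, adjusted p = 1.8e-08). Its neighbour AT5G38170 measured 12052, 9948 and 10696 FPKM in dellaq and 4197, 4319 and 4465 FPKM in Col-0-1 (log2 change 1.33 ± 0.10 SE, adjusted p = 1.9e-07). The pair made up 3.44 to 4.03% of the nuclear FPKM sum in dellaq and 1.27 to 1.43% in Col-0-1. The uncharacterized gene AT1G62060 measured 11543, 10209 and 9506 FPKM in dellaq and 7567, 7045 and 7928 FPKM in Col-0-1 (log2 change 0.47 ± 0.10 SE, adjusted p = 0.00106), a call that ended after removal of a trend in length and GC content (0.057, adjusted p = 0.647) and with no low-value filter (adjusted p = 0.0562). Its neighbour AT1G62070 measured 6116, 5044 and 4903 FPKM in dellaq and 2184, 1706 and 2794 FPKM in Col-0-1 (log2 change 1.29 ± 0.17 SE, adjusted p = 2.2e-05). Of the 8 highest genes in each group, 5 were common to both lists, namely these 4 and the light harvesting gene CAB1. SESA3, SESA2 and OLEO1 completed the dellaq list, and LTP4, RBCS1A and the defensin family gene LCR69 the Col-0-1 list. LCR69 measured 4630.3, 4264 and 4433 FPKM in dellaq and 2019, 2052 and 2130.2 FPKM in Col-0-1 (adjusted p = 2.0e-08), but did not differ past the threshold from Col-0-2 (log2 change -0.069, adjusted p = 0.343).

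Of the 5 DELLA genes, RGL1, RGL2 and RGA1 (RGA) were lower in dellaq. RGL1 measured 1.51, 1.61 and 1.05 FPKM in dellaq and 14.5, 14.3 and 14.4 FPKM in Col-0-1 (log2 change -2.69 ± 0.094 SE, adjusted p = 5.8e-10). RGL2 measured 3.74, 6.01 and 4.22 FPKM in dellaq and 25.5, 25.1 and 26.1 FPKM in Col-0-1 (log2 change -2.25 ± 0.11 SE, adjusted p = 8.9e-09). RGA1 measured 21.0, 20.5 and 20.8 FPKM in dellaq and 28.2, 27.0 and 29.2 FPKM in Col-0-1 (log2 change -0.42 ± 0.05 SE, adjusted p = 1.1e-05). The groups did not overlap in these 3 genes. GAI measured 12.2, 6.63 and 8.09 FPKM in dellaq and 9.29, 7.78 and 9.56 FPKM in Col-0-1 (log2 change -0.019, adjusted p = 0.914) and overlapped. RGL3 measured 7.93, 7.19 and 8.88 FPKM in dellaq and 6.68, 5.89 and 7.09 FPKM in Col-0-1 (log2 change 0.25, adjusted p = 0.0598) and passed with median-ratio scaling (0.48, adjusted p = 0.00209), among other settings. The labels do not tie these levels to alleles, and a transcript level does not show whether a protein was made.

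Genes of gibberellin perception and of DELLA partners included 11 that fell and 1 that rose, of 16 (median -0.37; -0.12 against Col-0-2). The receptor gene GID1A measured 10.7, 11.9 and 13.0 FPKM in dellaq and 23.0, 21.0 and 23.7 FPKM in Col-0-1 (log2 change -0.87 ± 0.073 SE, adjusted p = 6.0e-07). SCL3, a GRAS protein that opposes DELLA proteins, measured 7.01, 8.67 and 9.51 FPKM in dellaq and 17.8, 19.1 and 19.2 FPKM in Col-0-1 (log2 change -1.08 ± 0.10 SE, adjusted p = 1.7e-06). The RING protein gene RING (AT4G19700, BOI) fell by 0.79 and SEC, an O-linked sugar transferase that modifies DELLA proteins, by 0.70. SEC did not differ past the threshold from Col-0-2 (0.024, adjusted p = 0.632). JKD, a zinc finger partner, was the member that rose (log2 change 0.37, adjusted p = 0.00516), and its call ended with equal nuclear FPKM sums (0.20, adjusted p = 0.0843).

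Gibberellin synthesis genes included 8 that fell and 1 that rose, of 10 tested (median -0.51), and against Col-0-2 the median was 0.02, with 3 lower and 4 higher. KAO2, which oxidizes kaurenoic acid, measured 9.84, 11.5 and 9.99 FPKM in dellaq and 31.1, 33.9 and 29.5 FPKM in Col-0-1 (log2 change -1.51 ± 0.077 SE, adjusted p = 1.0e-08). GA20OX2 measured 8.44, 7.55 and 8.10 FPKM in dellaq and 13.7, 14.6 and 14.0 FPKM in Col-0-1 (log2 change -0.74 ± 0.066 SE, adjusted p = 9.2e-07). GA3OX1, which makes bioactive gibberellin, measured 6.16, 4.41 and 4.39 FPKM in dellaq and 17.6, 16.2 and 17.8 FPKM in Col-0-1 (log2 change -1.62 ± 0.17 SE, adjusted p = 3.1e-06), but Col-0-2 averaged 2.22 ± 0.526 FPKM (SD, n = 3) and lay below dellaq (log2 change 0.89, adjusted p = 4.7e-04). GA3OX3 fell by 1.20. The kaurene oxidase gene GA3 was the single member that rose (log2 change 0.14, adjusted p = 0.0191), which ended without Col-0-1 replicate 1 (adjusted p = 0.0520), Col-0-1 replicate 2 (adjusted p = 0.0552) or dellaq replicate 1 (adjusted p = 0.0828), and turned to -0.032 with equal nuclear FPKM sums. Genes of inactivation included 3 that rose and 1 that fell, of 5 tested, but 1 higher and 1 lower against Col-0-2. The gibberellin methyltransferase gene GAMT2 measured 435, 365 and 389 FPKM in dellaq and 112, 110.5 and 116 FPKM in Col-0-1 (log2 change 1.80 ± 0.055 SE, adjusted p = 2.0e-10), with 100.1 ± 2.61 FPKM in Col-0-2. GAMT1 measured 468, 368 and 403 FPKM in dellaq and 262, 273 and 251 FPKM in Col-0-1 (log2 change 0.65 ± 0.072 SE, adjusted p = 5.7e-06), with no call against Col-0-2 (0.14, adjusted p = 0.101). GA2OX2 rose by 0.33, which ended against Col-0-2 (0.25, adjusted p = 0.0523), with equal nuclear FPKM sums (adjusted p = 0.143), without Col-0-1 replicate 3 (adjusted p = 0.0570) or without dellaq replicate 3 (adjusted p = 0.0660), and GA2OX6 fell by 0.87 from a level under 2 FPKM.

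GASA genes, small secreted peptides of which several respond to gibberellin, included 3 that rose and 2 that fell, of 10 tested, with a median of 0.019 that became -0.16 with equal nuclear FPKM sums and -0.30 after removal of a trend in length and GC content. Against Col-0-2 it was -0.54, with 4 higher and 5 lower. AT3G10185 measured 48.0, 55.2 and 48.6 FPKM in dellaq and 11.0, 8.17 and 11.7 FPKM in Col-0-1 (log2 change 2.20 ± 0.21 SE, adjusted p = 1.5e-06). GASA3 measured 2.01, 2.67 and 7.51 FPKM in dellaq and 0.444, 0.221 and 0.445 FPKM in Col-0-1 (log2 change 1.73 ± 0.30 SE, adjusted p = 2.1e-04), GASA4 rose by 0.70, and AT2G14900 and GASA6 fell by 0.65 and 0.87. Expansins and xyloglucan endotransglucosylases, which loosen cell walls, included 7 that rose and 11 that fell, of 23 (median -0.15, 0.064 with median-ratio scaling). These were 30.4% and 47.8%, against 19.6% and 52.6% of all nuclear genes. EXPA5 measured 138, 147 and 143 FPKM in dellaq and 54.8, 52.6 and 63.7 FPKM in Col-0-1 (log2 change 1.31 ± 0.084 SE, adjusted p = 6.1e-08). EXPA10 measured 23.5, 17.2 and 23.5 FPKM in dellaq and 63.8, 67.2 and 62.4 FPKM in Col-0-1 (log2 change -1.56 ± 0.11 SE, adjusted p = 2.0e-07). XTH4 and EXPA9 fell by 1.54 and 1.20, EXPA9 with no call against Col-0-2 (adjusted p = 0.137).

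Abscisic acid signalling genes rose more often than they fell. In the signalling list, 15 of 32 tested genes rose and 6 fell (median 0.20), with 21 and 5 under median-ratio scaling and 11 and 11 under equal nuclear FPKM sums. DOG1, a dormancy gene, measured 8.15, 14.0 and 11.6 FPKM in dellaq and 1.08, 0.442 and 1.20 FPKM in Col-0-1 (log2 change 2.68 ± 0.20 SE, adjusted p = 2.6e-07). HAI1, a phosphatase that shuts off the kinases of the pathway, measured 222, 260.2 and 249 FPKM in dellaq and 101, 98.0 and 116 FPKM in Col-0-1 (log2 change 1.21 ± 0.066 SE, adjusted p = 1.8e-08). The kinase gene SNRK2.2 measured 60.2, 53.5 and 52.6 FPKM in dellaq and 92.6, 94.6 and 91.7 FPKM in Col-0-1 (log2 change -0.74 ± 0.054 SE, adjusted p = 1.7e-07). The basic leucine zipper gene ABF1 measured 8.29, 8.83 and 10.2 FPKM in dellaq and 20.6, 19.8 and 19.8 FPKM in Col-0-1 (log2 change -1.06 ± 0.081 SE, adjusted p = 2.5e-07). ABF1 did not differ past the threshold from Col-0-2 (log2 change -0.072, adjusted p = 0.452). Among members named after their values were seen, EEL and DPBF2 (BZIP67), seed basic leucine zipper genes, rose by 1.16 and 1.49, E12A11 (MFT), a regulator of germination, by 1.32, and AHG1, a seed phosphatase, by 1.35. Also named so, 4 receptor genes of the PYR and PYL family rose, PYR1 by 0.67, PYL6 by 0.60, PYL7 by 0.43 and RCAR1 by 0.33. Of 10 tested genes of synthesis and breakdown, 2 were higher and 5 lower (median -0.12, 0.12 with median-ratio scaling). These shares, 20% and 50%, were near the 19.6% and 52.6% of all nuclear genes. Against Col-0-2, 5 were higher and 3 lower (median 0.21). NCED6, a carotenoid dioxygenase gene, measured 36.2, 35.3 and 33.1 FPKM in dellaq and 18.8, 15.4 and 23.2 FPKM in Col-0-1 (log2 change 0.85 ± 0.12 SE, adjusted p = 5.6e-05), and ABA2 rose by 0.77. NCED9 measured 11.8, 10.5 and 8.97 FPKM in dellaq and 26.3, 23.2 and 27.6 FPKM in Col-0-1 (log2 change -1.23 ± 0.10 SE, adjusted p = 4.6e-07), but lay above Col-0-2 (0.41, adjusted p = 0.00328). ABA3 fell by 0.68 and did not differ past the threshold from Col-0-2 (adjusted p = 0.928).

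Auxin genes included 9 that fell and 3 that rose, of 14 tested (median -0.45, 0.07 against Col-0-2). These were 64.3% and 21.4%, against 52.6% and 19.6% of all nuclear genes. YUC10, a flavin monooxygenase gene of auxin synthesis, measured 24.6, 29.0 and 31.2 FPKM in dellaq and 7.48, 6.75 and 9.60 FPKM in Col-0-1 (log2 change 1.72 ± 0.13 SE, adjusted p = 2.2e-07). PIN7 rose by 0.68 and TAA1 by 0.25, the latter not with equal nuclear FPKM sums (adjusted p = 0.298), while the efflux carrier gene PIN3 fell by 0.85 and the influx carrier gene LAX3, under 2 FPKM in every library, by 1.24.

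**Figure D3:**
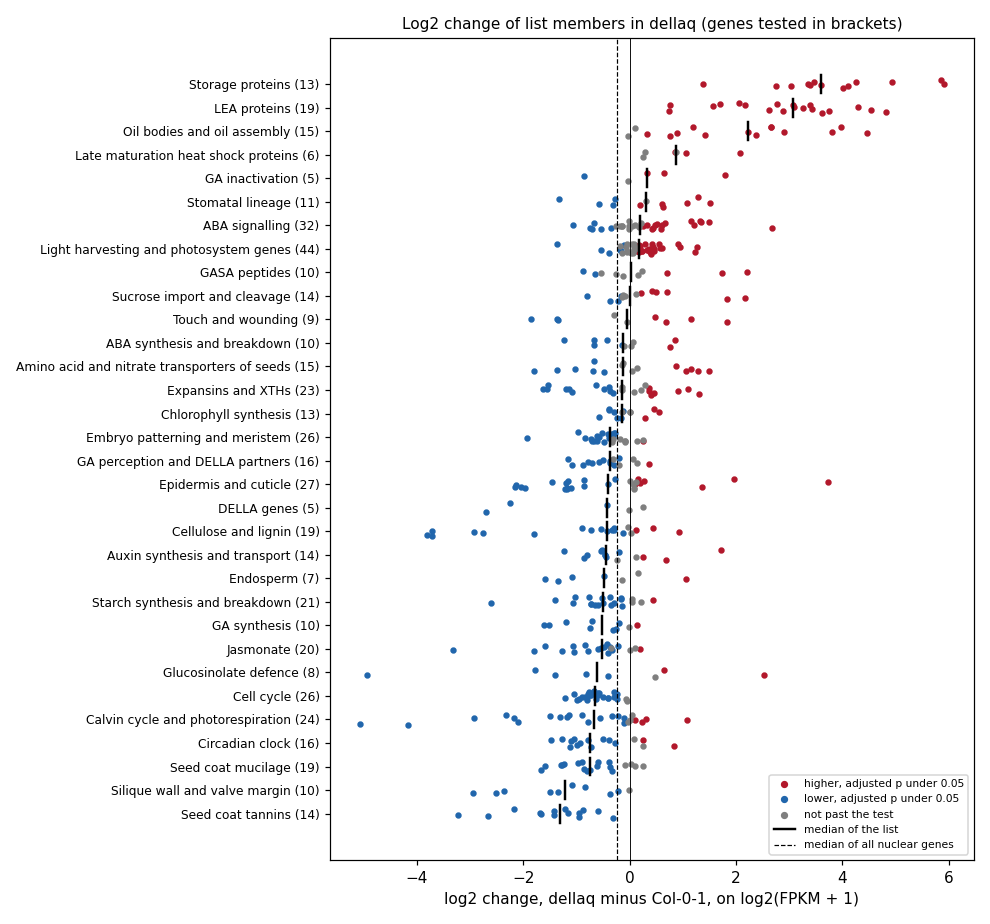
Log2 change (dellaq minus Col-0-1, log2(FPKM + 1) scale) of each tested member of the gene lists with at least 5 tested members, 1 point per gene; thick lines are list medians, the dashed line is the nuclear median of -0.23, and colours mark members past the adjusted p threshold. Storage protein, LEA and oil body genes lie furthest right, with medians of 3.60, 3.08 and 2.23, and seed coat tannin and silique wall genes furthest left, with medians of -1.32 and -1.22.

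Nuclear photosynthesis genes were compared by function, and their counts differed between the wild-type sets. Light harvesting and photosystem genes included 24 that rose and 6 that fell, of 44 (median 0.18). The counts were 18 and 13 with equal nuclear FPKM sums and 15 and 15 after removal of a trend in length and GC content, when the median was -0.032. They were 37 and 3 with median-ratio scaling, and 42 and 1 against Col-0-2 (median 0.82). PSAK and PSAO, of photosystem I, had the smallest p-values of the list. PSAK measured 561, 517 and 573 FPKM in dellaq and 224, 223 and 238 FPKM in Col-0-1 (log2 change 1.26 ± 0.05 SE, adjusted p = 1.4e-09). PSAO measured 656, 625 and 688 FPKM in dellaq and 264, 274 and 306 FPKM in Col-0-1 (log2 change 1.22 ± 0.059 SE, adjusted p = 6.6e-09). LHCB4.3 and LHCB6, antenna proteins of photosystem II, rose by 0.95 and 0.90. CAB1, the most abundant, measured 4700.4, 4723 and 5048 FPKM in dellaq and 5515, 4876 and 5985 FPKM in Col-0-1 (log2 change -0.17, adjusted p = 0.105). It was lower with equal nuclear FPKM sums (-0.35, adjusted p = 0.0038) and once gene length and GC content were adjusted for (-0.38, adjusted p = 0.00174), and lay above Col-0-2 (0.98, adjusted p = 1.6e-06). Chlorophyll synthesis genes included 3 that rose and 7 that fell, of 13 tested (median -0.15, 0.095 with median-ratio scaling). These shares, 23.1% and 53.8%, were near the 19.6% and 52.6% of all nuclear genes. Against Col-0-2, 12 were higher and 0 lower (median 0.66). PORB and CHLM rose by 0.55 and 0.45, CH1 by 0.29 (not with equal nuclear FPKM sums, adjusted p = 0.0836), and POR C and CHLI1 fell by 0.57 and 0.38. Against Col-0-2, POR C did not pass (-0.08, adjusted p = 0.25) and CHLI1 was higher (0.13).

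Calvin cycle and photorespiration genes included 17 that fell and 4 that rose, of 24 tested (median -0.67), whereas 14 were higher and 9 lower than in Col-0-2 (median 0.31). Of the rubisco small subunit genes, RBCS1A measured 2666, 2637 and 2849 FPKM in dellaq and 2598, 2589 and 2938 FPKM in Col-0-1 (log2 change 0.0066, adjusted p = 0.935). RBCS2B measured 5.57, 5.78 and 5.85 FPKM in dellaq and 117, 109.7 and 131 FPKM in Col-0-1 (log2 change -4.16 ± 0.10 SE, adjusted p = 4.1e-11). RBCS3B measured 76.9, 69.3 and 81.8 FPKM in dellaq and 344, 338 and 351 FPKM in Col-0-1 (log2 change -2.17 ± 0.057 SE, adjusted p = 6.4e-11). These copies are similar and may share reads. The carbonic anhydrase gene CA1 measured 0.746, 0.509 and 0.676 FPKM in dellaq and 54.0, 52.3 and 56.6 FPKM in Col-0-1 (log2 change -5.07 ± 0.061 SE, adjusted p = 7.3e-14). Of the CP12 linker proteins, CP12-1 measured 832, 811 and 904 FPKM in dellaq and 386, 382 and 444 FPKM in Col-0-1 (log2 change 1.07 ± 0.061 SE, adjusted p = 2.5e-08). CP12-2 measured 9.20, 8.29 and 8.96 FPKM in dellaq and 44.7, 46.5 and 54.3 FPKM in Col-0-1 (log2 change -2.33 ± 0.077 SE, adjusted p = 4.0e-10). CP12-1, RPE (0.30), GAPA-2 (0.23) and the transketolase gene AT3G60750 (0.10) were the 4 members that rose. With equal nuclear FPKM sums, GAPA-2 lost its call (adjusted p = 0.316) and AT3G60750 turned to -0.073. AT3G60750 also lost its call without dellaq replicate 3 (adjusted p = 0.0642). Named after their values were seen, all 6 tested photorespiration genes fell, namely GOX1 (-0.90), GOX2 (-1.50), SHM1 (-1.13), AGT (-1.30), HPR (-0.56) and GDCH (-0.77).

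Genes of the silique wall and of lignified secondary walls were mostly lower in dellaq. Of 10 silique wall and valve margin genes, 9 fell and 0 rose (median -1.22; -0.48 against Col-0-2). NAC012 (NST3), a secondary wall switch, measured 0.200, 0.231 and 0.169 FPKM in dellaq and 7.31, 8.47 and 9.14 FPKM in Col-0-1 (log2 change -2.95 ± 0.16 SE, adjusted p = 1.7e-08). Its partner NST1 measured 0.415, 0.630 and 0.922 FPKM in dellaq and 9.74, 8.25 and 7.37 FPKM in Col-0-1 (log2 change -2.52 ± 0.17 SE, adjusted p = 9.3e-08). AGL8 (FUL), which specifies valves, measured 2.23, 2.26 and 2.20 FPKM in dellaq and 15.1, 15.6 and 15.7 FPKM in Col-0-1 (log2 change -2.35 ± 0.15 SE, adjusted p = 5.8e-08). ALC, a valve margin gene, measured 15.9, 17.9 and 18.0 FPKM in dellaq and 43.7, 42.5 and 50.7 FPKM in Col-0-1 (log2 change -1.35 ± 0.084 SE, adjusted p = 5.1e-08). Cellulose and lignin genes included 14 that fell and 3 that rose, of 19 (median -0.43). With median-ratio scaling 10 fell and 6 rose (median -0.17). The secondary wall cellulose synthase gene CESA4 measured 3.03, 3.20 and 2.93 FPKM in dellaq and 51.9, 53.0 and 51.8 FPKM in Col-0-1 (log2 change -3.71 ± 0.15 SE, adjusted p = 2.0e-09). IRX12 (LAC4), a laccase that polymerizes lignin, measured 5.63, 5.26 and 4.83 FPKM in dellaq and 80.0, 80.5 and 80.6 FPKM in Col-0-1 (log2 change -3.71 ± 0.16 SE, adjusted p = 2.2e-09). LAC17, another such laccase, measured 0.489, 0.546 and 0.533 FPKM in dellaq and 20.0, 21.7 and 19.3 FPKM in Col-0-1 (log2 change -3.81 ± 0.19 SE, adjusted p = 8.2e-09). IRX15, a xylan gene, measured 0.823, 0.952 and 0.464 FPKM in dellaq and 25.3, 29.2 and 27.4 FPKM in Col-0-1 (log2 change -4.03 ± 0.17 SE, adjusted p = 2.2e-09). PAL1, the entry enzyme of phenylpropanoid synthesis, measured 27.7, 24.8 and 22.5 FPKM in dellaq and 86.9, 91.1 and 89.3 FPKM in Col-0-1 (log2 change -1.80 ± 0.11 SE, adjusted p = 3.6e-08), while PAL4 rose by 0.92, the seed coat cellulose synthase gene CESA9 by 0.44 and FAH1 by 0.12. The FAH1 call ended without dellaq replicate 1 (adjusted p = 0.134) or Col-0-1 replicate 1 (adjusted p = 0.0979) or replicate 3 (adjusted p = 0.0653), and FAH1 turned to -0.051 with equal nuclear FPKM sums. Primary wall cellulose synthase genes, named after their values were seen, changed by less, from -0.34 (CEV1, CESA3) to -0.13 (CESA6). That range includes the nuclear median of -0.23.

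Tissue markers moved with these groups. The 8 silique wall markers all fell, with summed levels of 97.1 to 122 FPKM in dellaq, 174 to 180.1 in Col-0-1, 136 to 146 in Col-0-2 and 168 to 197 in lec1-4. None of them was at 0 in all libraries of a group. With median-ratio scaling SHP1 turned to 0.04 (adjusted p = 0.547), and SHP2 did not pass (adjusted p = 0.382). Once gene length and GC content were adjusted for, SHP1 was 0.078 (adjusted p = 0.302). Against Col-0-2, SHP1 (0.066, adjusted p = 0.345), ADPG1 (0.31, adjusted p = 0.179) and IND (-0.40, adjusted p = 0.139) did not pass. Of 4 green tissue markers, 3 fell and RBCS1A did not pass, with summed levels of 2985 to 3217 FPKM in dellaq and 3269 to 3698 in Col-0-1. The green tissue marker CAB2 did not pass against Col-0-2 (adjusted p = 0.475), and RBCS1A was higher there (0.64) and with median-ratio scaling (0.26, adjusted p = 0.00491). Of 2 vascular markers, SUC2 rose and APL fell, APL with no call against Col-0-2 (adjusted p = 0.173). Of 9 embryo maturation markers, 7 rose and FUS3 and ABI3 did not pass, with sums of 11608 to 19781 FPKM in dellaq and 1429 to 3108 FPKM in Col-0-1. With median-ratio scaling FUS3 (0.35, adjusted p = 0.00312) and ABI3 (0.43, adjusted p = 5.9e-04) passed upward, ABI3 also once gene length and GC content were adjusted for (adjusted p = 0.00242), and against Col-0-2 they were higher by 1.55 and 1.36. All 7 seed coat markers fell (359 to 429 FPKM against 874 to 1067). Seed markers were thus present in all libraries. The share of carried-over silique tissue in the results was not tested, and in whole seeds fewer cells of a type and less RNA per cell cannot be told apart.

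**Figure D4:**
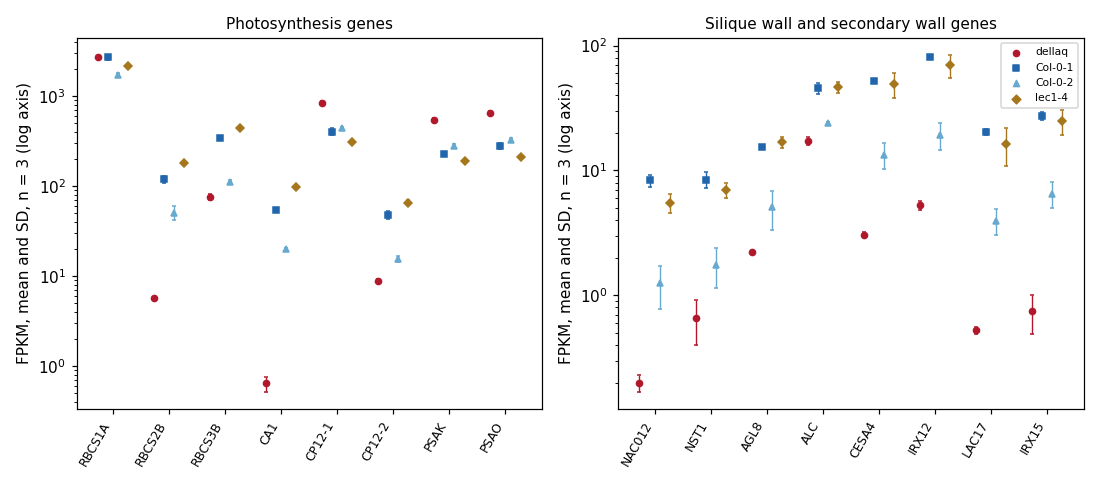
Mean FPKM with SD (n = 3 libraries, log axis) in dellaq, Col-0-1, Col-0-2 and lec1-4 for 8 photosynthesis genes (left) and 8 silique wall and secondary wall genes (right). RBCS1A is level in dellaq and Col-0-1, RBCS2B, CA1 and CP12-2 are lower and CP12-1, PSAK and PSAO higher in dellaq, and all 8 wall genes are lowest in dellaq and intermediate in Col-0-2.

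The remaining large falls included a defence enzyme and ribosome genes. TGG2, a myrosinase that cleaves glucosinolates, measured 4.66, 6.69 and 7.64 FPKM in dellaq and 213, 213 and 239 FPKM in Col-0-1 (log2 change -4.94 ± 0.18 SE, adjusted p = 8.1e-10). In the glucosinolate list 5 of 8 genes fell and 2 rose (median -0.61), or 62.5% and 25%, against 52.6% and 19.6% of all nuclear genes. ESP and GTR2 fell by 1.78 and 0.81, GTR2 with no call against Col-0-2 (adjusted p = 0.602), and TGG1 measured 20.4, 33.4 and 27.6 FPKM in dellaq and 70.5, 68.3 and 76.3 FPKM in Col-0-1 (log2 change -1.40 ± 0.18 SE, adjusted p = 2.3e-05) but lay above Col-0-2 (0.60, adjusted p = 0.0124). PYK10, a beta-glucosidase gene, measured 2.78, 21.0 and 4.94 FPKM in dellaq and 0.261, 0.297 and 0.597 FPKM in Col-0-1 (log2 change 2.52, adjusted p = 3.2e-04), and the change was 1.78 without dellaq replicate 2. ESM1 rose by 0.66, a call that ended without dellaq replicate 2 (adjusted p = 0.163), dellaq replicate 3 (adjusted p = 0.0637), Col-0-1 replicate 2 (adjusted p = 0.120) or Col-0-1 replicate 3 (adjusted p = 0.0561), and against Col-0-2 (adjusted p = 0.127). AT1G52930, a Brix domain gene of rRNA processing, measured 1.09, 1.12 and 0.653 FPKM in dellaq and 27.3, 26.1 and 28.9 FPKM in Col-0-1 (log2 change -3.87 ± 0.12 SE, adjusted p = 2.2e-10). MEE49, of the same family, measured 1.79, 1.79 and 1.15 FPKM in dellaq and 33.2, 35.0 and 33.3 FPKM in Col-0-1 (log2 change -3.76 ± 0.11 SE, adjusted p = 1.4e-10). Against Col-0-2, AT1G52930 was lower by much less (log2 change -0.31, adjusted p = 0.0391), and MEE49 did not pass (-0.009, adjusted p = 0.95). The annotated rRNA locus AT3G41979 measured 4.80, 3.03 and 5.18 FPKM in dellaq and 474, 387 and 318 FPKM in Col-0-1 (log2 change -6.21 ± 0.18 SE, adjusted p = 1.7e-10). AT2G01020, another, measured 2.62, 1.14 and 0.740 FPKM in dellaq and 83.7, 59.7 and 28.4 FPKM in Col-0-1 (log2 change -4.48 ± 0.34 SE, adjusted p = 2.3e-07). In Col-0-2, AT3G41979 averaged 5.46 ± 1.44 FPKM. The uncharacterized gene AT2G19802 spread widely, at 6.81, 36.2 and 1.92 FPKM in dellaq and 133, 168 and 90.9 FPKM in Col-0-1 (log2 change -3.75 ± 0.64 SE, adjusted p = 2.1e-04), and its change was -4.74 without dellaq replicate 2 and -2.91 without dellaq replicate 3. Of the 10 largest falls, 7 passed against Col-0-2 in the same direction, and the wild-type sets differed in 9.

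Seed coat and cell cycle genes were mostly lower in dellaq. All 14 tested tannin genes fell (median -1.32), as did 24 of 26 cell cycle genes (median -0.65) and 15 of 19 mucilage genes (median -0.75), with 0 that rose. With median-ratio scaling, 4 mucilage and 2 cell cycle genes rose. GSTF12 (TT19), which moves flavonoids into the vacuole, measured 12.5, 19.0 and 13.7 FPKM in dellaq and 149, 167 and 128 FPKM in Col-0-1 (log2 change -3.22 ± 0.14 SE, adjusted p = 3.4e-09). The anthocyanidin reductase gene BAN fell by 1.66, DFR by 2.17 and the regulator TT8 by 0.96. GL2, a homeodomain gene needed for mucilage, measured 69.8, 61.5 and 54.4 FPKM in dellaq and 189.8, 203 and 169 FPKM in Col-0-1 (log2 change -1.58 ± 0.11 SE, adjusted p = 1.3e-07). MYB61 measured 52.5, 53.2 and 46.6 FPKM in dellaq and 127, 125 and 119.6 FPKM in Col-0-1 (log2 change -1.27 ± 0.055 SE, adjusted p = 2.8e-09). NAC2 and IRX14 fell by 0.80 and 0.97. In the cell cycle list, CYCB1;1 measured 11.9, 10.8 and 10.8 FPKM in dellaq and 25.3, 24.0 and 20.5 FPKM in Col-0-1 (adjusted p = 3.2e-07), and TPX2, MCM2 and CDKB1;2 fell by 0.95, 0.83 and 0.90. Of 7 tested endosperm genes of 12, 4 fell and 1 rose, a share of lower genes near that of all nuclear genes. ALE1, a subtilase gene of the endosperm and embryo surface, measured 28.4, 21.5 and 22.4 FPKM in dellaq and 76.3, 78.7 and 67.4 FPKM in Col-0-1 (log2 change -1.59 ± 0.09 SE, adjusted p = 2.4e-08). RGE1 (ZOU) measured 20.8, 14.4 and 16.3 FPKM in dellaq and 38.7, 37.8 and 34.4 FPKM in Col-0-1 (log2 change -1.08 ± 0.10 SE, adjusted p = 1.7e-06). The polycomb gene FIS2 measured 0.437, 0.356 and 0.278 FPKM in dellaq and 2.36, 3.07 and 1.98 FPKM in Col-0-1 (log2 change -1.34 ± 0.17 SE, adjusted p = 1.5e-05). EPR1, an extensin of the endosperm next to the radicle, measured 2707, 2983 and 2909.9 FPKM in dellaq and 1363, 1172 and 1609 FPKM in Col-0-1 (log2 change 1.06 ± 0.12 SE, adjusted p = 9.5e-06). The endosperm marker sum, carried by EPR1, was 2730 to 3001 FPKM in dellaq and 1215 to 1647 in Col-0-1, and IKU2 was at 0 in both groups.

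Embryo patterning genes included 17 that fell and 1 that rose, of 26 tested (median -0.37). Against Col-0-2 these counts were 6 and 10. WOX8, a homeobox gene of the basal lineage, measured 7.18, 4.85 and 4.52 FPKM in dellaq and 24.9, 24.3 and 21.3 FPKM in Col-0-1 (log2 change -1.93 ± 0.14 SE, adjusted p = 1.4e-07). The leaf polarity genes PHV and PHB fell by 0.98 and 0.61, and KAN by 0.83, the last with no call against Col-0-2 (0.14, adjusted p = 0.106). SHR rose by 0.24, a call that ended with equal nuclear FPKM sums (adjusted p = 0.423) and without any one of 4 libraries (adjusted p up to 0.101).

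Epidermis and cuticle genes included 15 that fell and 7 that rose, of 27 tested (median -0.40). The share of lower genes, 55.6%, was near the 52.6% of all nuclear genes, and 25.9% were higher, against 19.6%. The wax genes CER2, CER4 and ABCG12 fell. CER2 measured 3.20, 4.73 and 3.02 FPKM in dellaq and 20.0, 20.0 and 14.6 FPKM in Col-0-1 (log2 change -2.05 ± 0.14 SE, adjusted p = 1.2e-07). CER4, a fatty acyl reductase gene, measured 5.79, 3.86 and 3.95 FPKM in dellaq and 23.7, 26.6 and 19.5 FPKM in Col-0-1 (log2 change -2.14 ± 0.13 SE, adjusted p = 3.8e-08). The wax exporter gene ABCG12 measured 74.4, 84.4 and 73.5 FPKM in dellaq and 187, 195 and 159.9 FPKM in Col-0-1 (log2 change -1.21 ± 0.073 SE, adjusted p = 3.7e-08). ABCG11 fell by 0.86. Lipid transfer protein genes differed, since LTP4 measured 1647, 1491 and 1559 FPKM in dellaq and 3330.5, 3814 and 3034 FPKM in Col-0-1 (log2 change -1.11 ± 0.10 SE, adjusted p = 8.0e-07) whereas LTP2, named after its values were seen, measured 968, 1515 and 1340.3 FPKM in dellaq and 90.8, 58.5 and 151 FPKM in Col-0-1 (log2 change 3.74 ± 0.27 SE, adjusted p = 1.8e-07). Likewise named, LTP5 rose by 1.96 and LTP3 and LTP6 fell by 1.19 and 1.96. Stomatal lineage genes included 6 that rose and 4 that fell, of 11 tested. EPF1, a signal peptide that limits stomata, measured 5.06, 8.65 and 8.97 FPKM in dellaq and 1.49, 1.63 and 2.83 FPKM in Col-0-1 (log2 change 1.51 ± 0.21 SE, adjusted p = 3.2e-05). STOMAGEN, a peptide that promotes them, measured 8.55, 14.8 and 13.6 FPKM in dellaq and 4.67, 4.22 and 4.09 FPKM in Col-0-1 (log2 change 1.29 ± 0.18 SE, adjusted p = 3.3e-05). AT4G31805 rose by 1.08, FMA fell by 1.33, with no call against Col-0-2 (adjusted p = 0.41), and HDG2 by 0.57. SCRM2 (log2 change -0.27, adjusted p = 9.5e-04) and SPCH (log2 change -0.32, adjusted p = 0.0325) were lower than in Col-0-1 but higher than in Col-0-2, by 0.22 and 1.62. The SPCH call ended on leaving out any one of 5 libraries (adjusted p = 0.0526 to 0.111), and both calls ended with median-ratio scaling.

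Sugar and nitrogen supply genes changed member by member. Sucrose import and cleavage genes included 6 that rose and 4 that fell, of 14 tested (median 0.011, -0.14 with equal nuclear FPKM sums). The sucrose synthase gene SUS3 measured 11.3, 13.5 and 13.7 FPKM in dellaq and 3.00, 2.46 and 3.28 FPKM in Col-0-1 (log2 change 1.82 ± 0.16 SE, adjusted p = 8.3e-07), and SUS2, named after its values were seen, 337, 474 and 423 FPKM in dellaq and 90.8, 67.2 and 120.1 FPKM in Col-0-1 (log2 change 2.16 ± 0.24 SE, adjusted p = 7.1e-06). SUS4 fell by 0.79, with no call against Col-0-2 (adjusted p = 0.477). The phloem loader gene SUC2 rose by 0.70 and the vacuolar transporter gene SUT4 by 0.51. SUC1, SUT2 and SUS1 fell by 0.36, 0.22 and 0.16, calls that ended with median-ratio scaling. SUS1 also lost its call without Col-0-1 replicate 1 (adjusted p = 0.0548), dellaq replicate 2 (0.0815) or dellaq replicate 3 (0.0633). Starch genes included 17 that fell and 1 that rose, of 21 (median -0.51; -0.052 against Col-0-2). The plastid beta-amylase gene CT-BMY (BAM3) measured 14.2, 13.7 and 18.4 FPKM in dellaq and 93.9, 108 and 93.5 FPKM in Col-0-1 (log2 change -2.60 ± 0.10 SE, adjusted p = 1.3e-09), but 13.4 ± 0.398 FPKM in Col-0-2. APL4, SBE2.2 and SEX1 fell by 1.06, 0.65 and 0.73, and GPT1, which imports glucose phosphate into plastids, rose by 0.45. Galactinol and raffinose genes were low, with SIP1 higher (0.67), STS lower (-0.41) and GolS2 not past the test (log2 change -0.048, adjusted p = 0.791). STS lost its call under median-ratio scaling (-0.19, adjusted p = 0.0571) and once gene length and GC content were adjusted for (-0.20, adjusted p = 0.053).

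Of 15 tested transporter genes, 5 rose and 6 fell (median -0.12, 0.13 with median-ratio scaling). UMAMIT25, an exporter of the nodulin MtN21 family, measured 395, 391 and 393 FPKM in dellaq and 141, 124 and 156 FPKM in Col-0-1 (log2 change 1.49 ± 0.071 SE, adjusted p = 6.5e-09). SIAR1 (UMAMIT18) measured 81.2, 86.7 and 86.2 FPKM in dellaq and 34.0, 33.3 and 35.7 FPKM in Col-0-1 (log2 change 1.28 ± 0.054 SE, adjusted p = 2.3e-09). UMAMIT24 measured 17.1, 16.8 and 15.3 FPKM in dellaq and 6.93, 7.35 and 7.76 FPKM in Col-0-1 (log2 change 1.06 ± 0.081 SE, adjusted p = 2.5e-07). UMAMIT28 and UMAMIT29 also rose, and UMAMIT11 fell and UMAMIT14 did not pass (log2 change -0.14, adjusted p = 0.175). The permease gene AAP4 measured 3.18, 2.86 and 3.25 FPKM in dellaq and 10.1, 9.00 and 9.42 FPKM in Col-0-1 (log2 change -1.36 ± 0.10 SE, adjusted p = 1.7e-07). AAP2 measured 45.2, 37.1 and 38.9 FPKM in dellaq and 137, 127 and 164 FPKM in Col-0-1 (log2 change -1.79 ± 0.16 SE, adjusted p = 1.0e-06). AAP3, AAP5 and AAP6 fell, and AAP1 did not pass (log2 change 0.042, adjusted p = 0.591). UMAMIT11, UMAMIT14, UMAMIT28, UMAMIT29, AAP1, AAP2, AAP3, AAP5 and AAP6 were named after their values were seen.

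Jasmonate genes included 16 that fell and 1 that rose, of 20 tested (median -0.51). These counts were 7 and 3 with median-ratio scaling and 8 and 6 against Col-0-2. LOX2, a plastid lipoxygenase of jasmonate synthesis, measured 5.33, 3.29 and 5.79 FPKM in dellaq and 58.0, 66.6 and 44.6 FPKM in Col-0-1 (log2 change -3.31 ± 0.19 SE, adjusted p = 3.2e-08). The repressor gene JAZ6 measured 3.75, 3.55 and 4.57 FPKM in dellaq and 16.0, 22.6 and 11.5 FPKM in Col-0-1 (log2 change -1.80 ± 0.27 SE, adjusted p = 8.2e-05), with no call against Col-0-2 (-0.48, adjusted p = 0.144). JAZ3 and TIFY10B (JAZ2) fell by 1.04 and 0.40 and were higher than in Col-0-2. JAR1, which conjugates jasmonate, rose by 0.20, but not with equal nuclear FPKM sums (adjusted p = 0.646). Clock genes included 12 that fell and 2 that rose, of 16 (median -0.75; -0.26 against Col-0-2). PRR5 measured 5.68, 4.66 and 5.67 FPKM in dellaq and 17.5, 16.6 and 15.9 FPKM in Col-0-1 (log2 change -1.48 ± 0.088 SE, adjusted p = 3.4e-08). TOC1, an evening gene, measured 45.2, 39.5 and 40.7 FPKM in dellaq and 79.5, 79.0 and 82.6 FPKM in Col-0-1 (log2 change -0.93 ± 0.054 SE, adjusted p = 2.9e-08), and AT3G54500 and AT5G64170 fell by 1.27 and 1.04. AT5G64170 had no call against Col-0-2 (adjusted p = 0.0549). BOA rose by 0.84. PCL1 (LUX) rose by 0.26, a call that ended with equal nuclear FPKM sums and without Col-0-1 replicate 2 (adjusted p = 0.0797) or dellaq replicate 1 (adjusted p = 0.0978), and was lower than in Col-0-2. The labels used here give no hour of harvest. Touch and wounding genes included 4 that rose and 3 that fell, of 9 tested (median -0.057, 0.19 with median-ratio scaling), but 0 were higher and 6 lower against Col-0-2 (median -0.84). RHL41 measured 39.1, 18.8 and 29.7 FPKM in dellaq and 6.60, 6.90 and 8.10 FPKM in Col-0-1 (log2 change 1.83 ± 0.20 SE, adjusted p = 5.6e-06). TCH3 measured 20.4, 10.1 and 8.48 FPKM in dellaq and 47.7, 49.1 and 41.9 FPKM in Col-0-1 (log2 change -1.85 ± 0.23 SE, adjusted p = 1.8e-05). Against Col-0-2, RHL41 turned to -0.27 (adjusted p = 0.25). STZ rose by 1.16, with no call against Col-0-2 (0.15, adjusted p = 0.494), and WRKY33 and WRKY40 fell by 1.34 and 1.36.

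Families were also taken from annotated products. Of 301 tested genes annotated as ribosomal proteins, 183 were higher and 64 lower (median 0.27). The counts were 133 and 103 after removal of a trend in length and GC content (median 0.084), and 21 and 209 against Col-0-2 (median -0.26). Products that name a chloroplast, plastid or mitochondrion were left out, but organellar members without those words may remain. AT1G70600, AT2G21290, AT5G57290 and AT3G44010 rose by 1.99, 1.86, 1.81 and 1.64 and were lower than in Col-0-2. AT1G70600 measured 898, 848 and 934 FPKM in dellaq and 215, 227 and 229.7 FPKM in Col-0-1. Of 42 genes annotated to the histone superfamily, which includes LEC1, 20 were higher and 8 lower (median 0.14, -0.19 with the trend removed and -0.036 with equal nuclear FPKM sums). The counts turned to 10 and 20 with the trend removed, and to 2 and 35 against Col-0-2 (median -0.65). RAT5 and HTA9, both H2A genes, rose by 0.89 and 0.93, AT1G07660 by 0.71 and HIS4 by 0.53. Against Col-0-2, RAT5 (0.05, adjusted p = 0.301) and HTA9 (0.056, adjusted p = 0.288) did not pass, and AT1G07660 and HIS4 were lower (-0.16 and -0.82). Of 60 annotated heat shock genes, 17 were higher and 27 lower (median -0.083, 0.16 with median-ratio scaling). These were 28.3% and 45%, against 19.6% and 52.6% of all nuclear genes. The counts were 8 and 33 against Col-0-2 (median -0.18). AT4G02450 and AT5G58740 rose by 0.97 and 0.65, and Hsp70-2 and cpHsc70-2 fell by 1.14 and 0.72. Of 28 class III peroxidase genes, 8 were higher and 8 lower (median -0.044, 0.17 with median-ratio scaling; 12 and 10 against Col-0-2, median 0.18). AT5G14130 measured 37.6, 39.5 and 40.8 FPKM in dellaq and 3.11, 2.37 and 4.48 FPKM in Col-0-1 (log2 change 3.25 ± 0.16 SE, adjusted p = 8.9e-09). AT1G71695 measured 135, 184 and 168 FPKM in dellaq and 32.9, 29.1 and 39.3 FPKM in Col-0-1 (log2 change 2.23 ± 0.13 SE, adjusted p = 2.4e-08). PER64 measured 5.13, 6.53 and 6.91 FPKM in dellaq and 39.0, 38.7 and 34.0 FPKM in Col-0-1 (log2 change -2.42 ± 0.19 SE, adjusted p = 2.8e-07).

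Genes of the organelle genomes are given apart from nuclear genes. Of 94 plastid-encoded genes, 89 (94.7%) were higher and 0 lower in dellaq than in Col-0-1, 87 of them by a log2 change of at least 1 (92.6%), with a median of 3.35. Of 30 mitochondrial genes, 26 (86.7%) were higher and 0 lower (median 1.58). The 5 plastid genes that did not pass were ATCG00190, ATCG00830, ATCG00920, ATCG01200 and ATCG01210 (named after their values were seen), the last 2 with changes of -0.24 and 0.14. ATCG00390 measured 432, 399.5 and 509 FPKM in dellaq and 1.84, 0 and 0 FPKM in Col-0-1 (log2 change 8.30 ± 0.35 SE, adjusted p = 2.1e-09). ATCG00220 measured 1809.7, 2063 and 2345 FPKM in dellaq and 14.1, 4.47 and 7.70 FPKM in Col-0-1 (log2 change 7.85 ± 0.26 SE, adjusted p = 4.1e-10). ATCG00790 measured 525, 559.5 and 614 FPKM in dellaq and 6.93, 4.44 and 6.11 FPKM in Col-0-1 (log2 change 6.39 ± 0.13 SE, adjusted p = 1.4e-11). ATCG01120 measured 46.9, 41.9 and 40.0 FPKM in dellaq and 0, 0 and 0 FPKM in Col-0-1. Among mitochondrial genes, ATMG00665 measured 32.6, 25.4 and 49.6 FPKM in dellaq and 3.06, 0 and 3.06 FPKM in Col-0-1 (log2 change 3.80 ± 0.50 SE, adjusted p = 2.3e-05), a change that was 3.13 without Col-0-1 replicate 2, and ATMG00090 and ATMG00516 rose by 2.71 and 2.63. Against Col-0-2, 75 plastid and 16 mitochondrial genes were higher (79.8% and 53.3%), with medians of 1.32 and 0.72. ATCG00390 averaged 333 ± 20.3 FPKM in Col-0-2 and ATCG00220 1352 ± 76.9. Between the wild-type sets, 71 plastid and 22 mitochondrial genes were higher in Col-0-2 (75.5% and 73.3%). Plastid transcripts mostly lack poly-A tails, and their share after poly-A selection can vary with the library preparation. The part of library preparation in these levels was not tested.

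**Figure D5:**
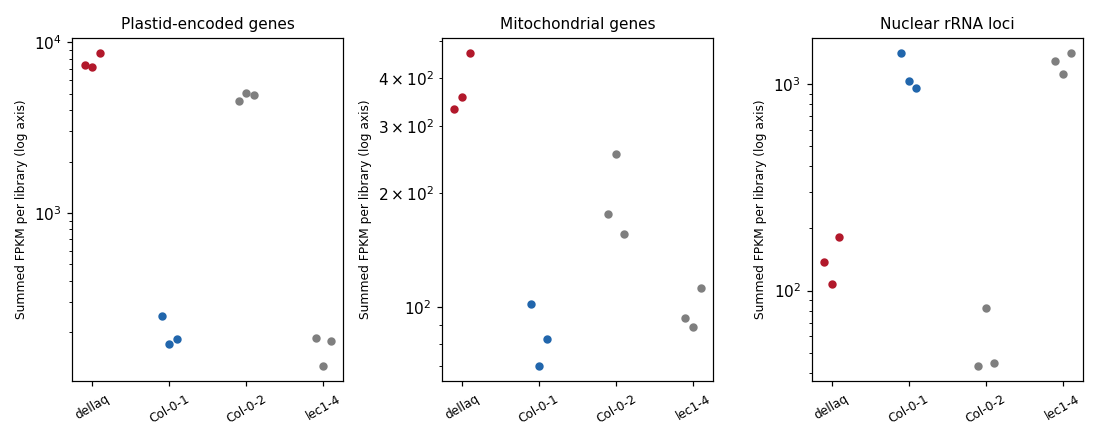
Summed FPKM per library (log axes, 1 point per library, 3 libraries per group) of plastid-encoded genes, mitochondrial genes and nuclear rRNA loci. Plastid sums are 7116 to 8593 FPKM in dellaq and 172 to 251 in Col-0-1, and rRNA sums run the other way, at 107 to 181 and 959 to 1408, with Col-0-2 on the side of dellaq and lec1-4 on that of Col-0-1 in the plastid and rRNA panels.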

How the data were processed

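Poly-A RNA of developing seeds was sequenced after poly-T bead selection from 3 µg of RNA with a kit that does not mark strand, per the labels' protocols, so overlapping and antisense genes cannot be told apart. What the authors deposited is FPKM, 1 value per gene and library. Tools named, with no role, in the submitters' processing notes are DESeq 1.18.0, HTSeq 0.6.1, TopHat2 2.0.12 and Bowtie2 2.2.3. Build, annotation and counting rules: not given in the sources used. Names, exon lengths and promoters came from TAIR10.1 (32835 of 33602 IDs matched). Library depth was inferred from the spacing of low FPKM values (5103 of 5224 low genes gave whole multiples within 0.001 fragments). The depth taken was the most common estimate, which 27.1% of those 5103 genes gave, so its absolute size is approximate. It sets no interval here. No 2 libraries shared identical non-zero values (0 found).

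Because the values are FPKM, limma 3.58.1 (R 4.3.3, with trend) was fitted to log2(FPKM + 1) for all 12 libraries in 1 model with 8 residual degrees of freedom. P-values were adjusted by Benjamini-Hochberg over 19267 genes, and 14335 genes that did not reach 1 FPKM in 3 of the 6 compared libraries were left out. The log2(FPKM + 1) scale understates changes of low genes. The fit was also run on simulated data, with an outcome that is not given here. No column was left unmapped (0). Python 3.11.15 made the tables and matplotlib 3.10.9 the figures.

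The 33 hand-written lists (591 genes, after 4 whose names could not be matched were dropped) and 4 families by annotated product, like the members of the comparison, were chosen with earlier results of these data known. List counts are a description. Named genes are the DELLA genes, the 10 largest rises and falls past the test with a mean of at least 5 FPKM and no overlap, up to 4 members per list with the smallest p, members counted against most of their list, genes listed at 0 in a group, the 8 highest genes per group and the 3 largest organelle changes. Others are said to be named after their values were seen. Alternatives were 3 scalings, removal of a length and GC trend (99.9% of nuclear genes had both values), other filters (none, 5 FPKM), no variance trend, a pseudocount of 0.1, a fit to the 6 compared libraries alone, a block for replicate number, Col-0-2 or the mean of both sets as wild type, and each library left out in turn.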

Additional observations from a re-analysis of the deposited data

Results flagged for a closer look

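Genes called in opposite directions against the 2 wild-type sets (limma, adjusted p under 0.05) numbered 17 among the 210 tested named genes. Over all 19143 nuclear genes tested, 1923 were called so. A difference between the wild-type sets follows from opposite calls in the same fit, so it is not a separate result. The values are log2 differences, Col-0-2 minus Col-0-1. Lower in dellaq than in Col-0-1 but higher than in Col-0-2 were GA3OX1 (-2.51), TGG1 (-1.99), SPCH (-1.94), NCED9 (-1.64), JAZ3 (-1.48), GASA6 (-1.25), TIFY10B (-0.79), CHLI1 (-0.51) and SCRM2 (-0.49). Higher than in Col-0-1 but lower than in Col-0-2 were the ribosomal protein genes AT1G70600 (2.19), AT2G21290 (2.11), AT5G57290 (2.08) and AT3G44010 (1.87), the histone genes HIS4 (1.35) and AT1G07660 (0.87), AT4G02450 (1.30) and PCL1 (0.92). With 3 libraries per group, no group was examined for single distant libraries.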

How the results depend on the processing

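The count of higher nuclear genes moved to 6331 and that of lower ones to 5875 with median-ratio scaling, while the other alternatives kept each nuclear count within 1.5 times. Mitochondrial genes called higher were 16 with Col-0-2 as wild type, among the same 30 tested. They were 16 with a filter at 5 FPKM and 48 with no low-value filter, settings that change which genes are tested. With no low-value filter, 1 plastid gene was called lower. Leaving out 1 library in turn gave 3439 to 3663 higher and 9407 to 9934 lower nuclear genes, 818 to 912 and 1279 to 1464 with a log2 change of at least 1, 87 to 90 plastid and 26 to 27 mitochondrial genes higher, and 0 to 0 lower. The length and GC alternative was run on nuclear genes only.

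Of 210 tested named genes, 143 kept direction and call under every alternative that gave them a value (the 5 FPKM filter did so for 197). Changes of sign are given as log2 values, and their cause was not tested. They were, with Col-0-2 as wild type: GAI 0.025, AT2G01020 0.20, CAB1 0.98, LCR69 -0.069, SEC 0.024, GA3OX1 0.89, GASA6 0.39, NCED9 0.41, ABA3 0.0091, GolS2 1.16, SUS4 0.071, CT-BMY 0.18, CHLI1 0.13, KAN 0.14, RHL41 -0.27, TIFY10B 0.39, JAZ3 0.43, TGG1 0.60, AT1G70600 -0.20, AT2G21290 -0.25, AT5G57290 -0.26, AT3G44010 -0.24, AT1G07660 -0.16, HIS4 -0.82, AT4G02450 -0.33, AT5G58740 -0.11, SPCH 1.62, SCRM2 0.22, PCL1 -0.66. With the mean of both wild-type sets: GAI 0.0029, CAB1 0.40, GolS2 0.56, HIS4 -0.14, SPCH 0.65, PCL1 -0.20. With median-ratio scaling: GAI 0.21, CAB1 0.084, GolS2 0.17, SUS1 0.094, SUT2 0.027. With upper-quartile scaling: GAI 0.10, GolS2 0.062. With equal nuclear FPKM sums: RBCS1A -0.17, GA3 -0.032, AT3G60750 -0.073, FAH1 -0.051. With the length and GC trend removed, with or without the replicate block: GAI 0.093, RBCS1A -0.10, SUS1 0.074.
On leaving out 1 library in turn, GAI ran from -0.24 to 0.15, RBCS1A from -0.028 to 0.066 and GolS2 from -0.24 to 0.10.

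Replicate numbers are shared by the groups, but same-numbered libraries deviated with correlations of -0.020, -0.024 and 0.13, so they were not taken as pairs. A replicate block gave 3710 higher and 9970 lower nuclear genes (846 and 1334 with a log2 change of at least 1), 89 plastid and 26 mitochondrial genes higher. With 3 libraries per group and about 15.2 M estimated fragments per library, genes that missed the 1 FPKM filter were tested only in the alternative without it.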
